A study of Mus musculus with 9 samples.

Results

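The oligoadenylate synthetase (Oas) family was described in CD11b+ cells of mouse livers injured with acetaminophen (APAP). The 6 members were Oas1a, Oas1g, Oas2, Oas3, Oasl1 and Oasl2, out of 12 Oas genes in the deposited tables and 45777 genes in all. They were chosen by their TPM in these samples (transcripts per 1000000) and by earlier results of the group comparisons made on it, so their values and fold changes are given as a description with no test. All 6 passed the filter of 1 TPM or more in 3 or more samples, as did Oas1b and Oas1c, while Oas1d, Oas1e, Oas1f and Oas1h did not.

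The 9 samples formed 3 groups of 3, and every animal in them received APAP into the peritoneum, the liver toxin that damages hepatocytes. The control group (PBS) was given saline buffer. The HEK-EV group was given extracellular vesicles labelled HEK SIRP-EV, named for the human embryonic kidney line, and the MSC-EV group SIRP-EV named for mesenchymal stem or stromal cells (MSC). Vesicles were injected into a vein 8 hours after APAP, and livers were taken 48 hours after it. CD11b is an integrin chain carried by monocytes, macrophages and neutrophils. The labels do not spell out SIRP or give strain, sex, age or vesicle dose, and no animals without APAP were analysed here. They do not say that replicates are separate animals either, so p-values measure the spread between these samples, which may be technical.

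Oas proteins sense double-stranded RNA in the cytosol. The synthetases answer it by making 2'-5'-linked oligoadenylates (2-5A), a messenger that leads to the cutting of viral and cellular RNA. Their genes are classic targets of type I interferon, which acts through JAK kinases, STAT proteins and the interferon regulatory factors (Irf) on a promoter element called the ISRE. Myeloid cells carry these genes at a resting level that interferon raises.

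All 6 members lie on chromosome 5 of build GRCm38 (mm10), in a pair of clusters 5.79 Mb apart. Oasl2 (gene ID 23962, 114896926 to 114912245, plus strand) and Oasl1 (gene ID 231655, 114923143 to 114937911, plus strand) span 41.0 kb together. Oas2 (gene ID 246728, 120730333 to 120749886), Oas3 (gene ID 246727, 120753098 to 120777684), Oas1g (gene ID 23960, 120876142 to 120887613) and Oas1a (gene ID 246730, 120896256 to 120907544) lie on the minus strand within 177 kb. All 6 are annotated as protein coding, and no other annotated gene overlaps any of them.

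The promoters are shown because the members varied together and are known interferon targets. RefSeq promoter windows of GRCm38.p6, 250 bases before to 50 after the start, were found for 5 of the 6 members, and Oas2 had no entry. The ISRE core was searched as GAAANNGAAA, or TTTCNNTTTC on the other strand, and the STAT element GAS as TTCNNNGAA, which reads alike on both strands. The 100 bases before each start follow, 5' to 3' on the gene's strand, with the ISRE core in capitals. They are chr5:120907526-120907625 (minus) for Oas1a, chr5:120887614-120887713 (minus) for Oas1g, chr5:120777660-120777759 (minus) for Oas3 and chr5:114896834-114896933 (plus) for Oasl2. The Oasl1 window is not shown, since its start lies well inside the gene model of the files.
Oas1a: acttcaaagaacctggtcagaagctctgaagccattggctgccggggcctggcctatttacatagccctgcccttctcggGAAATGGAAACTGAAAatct
Oas1g: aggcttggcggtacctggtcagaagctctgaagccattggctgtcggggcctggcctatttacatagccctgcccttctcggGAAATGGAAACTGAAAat
Oas3: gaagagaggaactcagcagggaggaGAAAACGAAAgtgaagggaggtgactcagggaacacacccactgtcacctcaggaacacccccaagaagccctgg
Oasl2: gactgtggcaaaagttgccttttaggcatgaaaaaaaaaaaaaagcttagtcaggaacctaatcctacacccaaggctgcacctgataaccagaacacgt

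In Oas1a the ISRE core matched from -20 to -11 and again, overlapping, from -14 to -5 relative to the start. Oas1g held the same overlapping pair from -18 to -9 and from -12 to -3, and its sequence was identical to that of Oas1a at 93 of 100 bases with an offset of 2. Oas3 held 1 match, from -75 to -66. These letters were in neither the Oasl1 nor the Oasl2 window, which says only that they are absent from those windows. The table's start lies slightly inside the outermost gene boundary in the files for Oas1a, Oas3 and Oasl2. The ISRE core was in 3.44% of the 32851 promoter windows of the same length. GAS matched in Oas1a alone among the 5, from -98 to -90, and in 8.30% of all windows.

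In the cells, the defining myeloid genes were present in every sample, with 196.4 to 434.4 TPM of Itgam (the CD11b chain), 418.2 to 669.2 TPM of Ptprc (CD45) and 13330 to 18740 TPM of Lyz2 (lysozyme). The tables hold no read counts, but the ratio of coverage to FPKM follows depth. It was 5.28, 6.06 and 6.32 in PBS 1, 2 and 3, and 6.25, 6.47 and 6.3 in HEK-EV 1, 2 and 3. In MSC-EV 1, 2 and 3 it was 6.58, 6.84 and 6.65, above every sample of the other groups. HEK-EV 2, MSC-EV 1 and MSC-EV 3 were high in pancreatic acinar transcripts, with summed levels of 1345, 175 and 3769 TPM over 21 genes against 13.26 to 15.36 TPM in PBS, HEK-EV 3 and MSC-EV 2. HEK-EV 1, at 44.6 TPM, held them at a lower level, among them Ctrb1 at 4.432 TPM, which was listed at 0 in all PBS samples. Results for the family are also given without the 3 high samples, and those values still include HEK-EV 1.

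Oas1a encodes a 2-5A synthetase. Its level was 230.1, 319.2 and 302.1 TPM in PBS 1, 2 and 3, 263, 231.5 and 247.2 TPM in HEK-EV 1, 2 and 3, and 203.9, 183.8 and 186.2 TPM in MSC-EV 1, 2 and 3. The MSC-EV samples were the lowest of the 9 and did not overlap either other group, while PBS and HEK-EV overlapped. The group means were 284 ± 47.2, 247 ± 15.8 and 191 ± 11.0 TPM (SD, n = 3 each). The log2 fold change of TPM + 1 was -0.55 (SE 0.113) for MSC-EV against PBS.

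Oas1g is a second Oas1-type synthetase and the near twin of Oas1a. It was at 87.93, 126.5 and 107.6 TPM in the PBS samples, 100.8, 90.82 and 100.4 TPM in HEK-EV, and 75.57, 59.6 and 70.5 TPM in MSC-EV. Again the MSC-EV samples lay below the other 6, with a log2 fold change of -0.63 (SE 0.129) against PBS. Of the distinct 50-base stretches of Oas1a transcripts 57.6% occur in Oas1g, and 45.2% of those of Oas1g occur in Oas1a, so how reads were divided between them is uncertain. Their sum depends less on that division but is not free of it, since TPM is scaled by transcript length. Reads dropped or counted for both genes would also change it. The sum was 391 ± 65.8, 345 ± 20.9 and 260 ± 18.3 TPM in PBS, HEK-EV and MSC-EV (SD, n = 3 each). Its log2 fold change was -0.58 for MSC-EV against PBS and -0.41 against HEK-EV. The share of Oas1g in the sum ran from 24.5% to 28.9% over the 9 samples.

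Oas2, a larger synthetase built from repeated catalytic-type domains, was at 150, 189.5 and 168.4 TPM in PBS, 163, 134.6 and 173.7 TPM in HEK-EV and 125, 84.25 and 126 TPM in MSC-EV. MSC-EV 2 stood below MSC-EV 1 and 3, and the highest MSC-EV sample lay close under the lowest HEK-EV sample. The log2 fold change was -0.61 (SE 0.162) for MSC-EV against PBS. No stretch of 50 bases of Oas2 is shared with another gene's transcripts.

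Oas3, the longest family member, was at 133.9, 259.9 and 210 TPM in PBS. It was at 188.2, 144.3 and 171.4 TPM in HEK-EV and 101.7, 85.1 and 107.1 TPM in MSC-EV. PBS 1 lay below all 3 HEK-EV samples and yet above all 3 MSC-EV samples. The means were 201 ± 63.4, 168 ± 22.2 and 98 ± 11.5 TPM (SD, n = 3 each), and the log2 fold change was -0.99 (SE 0.212) for MSC-EV against PBS.

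Oasl1 has no synthetase activity and is known in mice for blocking translation of the Irf7 message, which dampens interferon production. It was at 82.37, 168.6 and 142.5 TPM in PBS, 115, 91.71 and 124.5 TPM in HEK-EV, and 63.57, 53.93 and 68.73 TPM in MSC-EV. PBS had a coefficient of variation of 33.7%, the largest of the 6 members, and PBS 1 was again nearest to MSC-EV. The log2 fold change was -1.01 (SE 0.233) for MSC-EV against PBS.

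Oasl2, which carries ubiquitin-like repeats at its end, was the most abundant member. It was at 305.9, 481.8 and 429.5 TPM in PBS, 405.2, 321.6 and 418.6 TPM in HEK-EV, and 279, 208.8 and 284.8 TPM in MSC-EV. The MSC-EV samples were once more the 3 lowest, and PBS and HEK-EV overlapped almost wholly. The log2 fold change was -0.64 (SE 0.182) for MSC-EV against PBS.

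**Figure D1:**
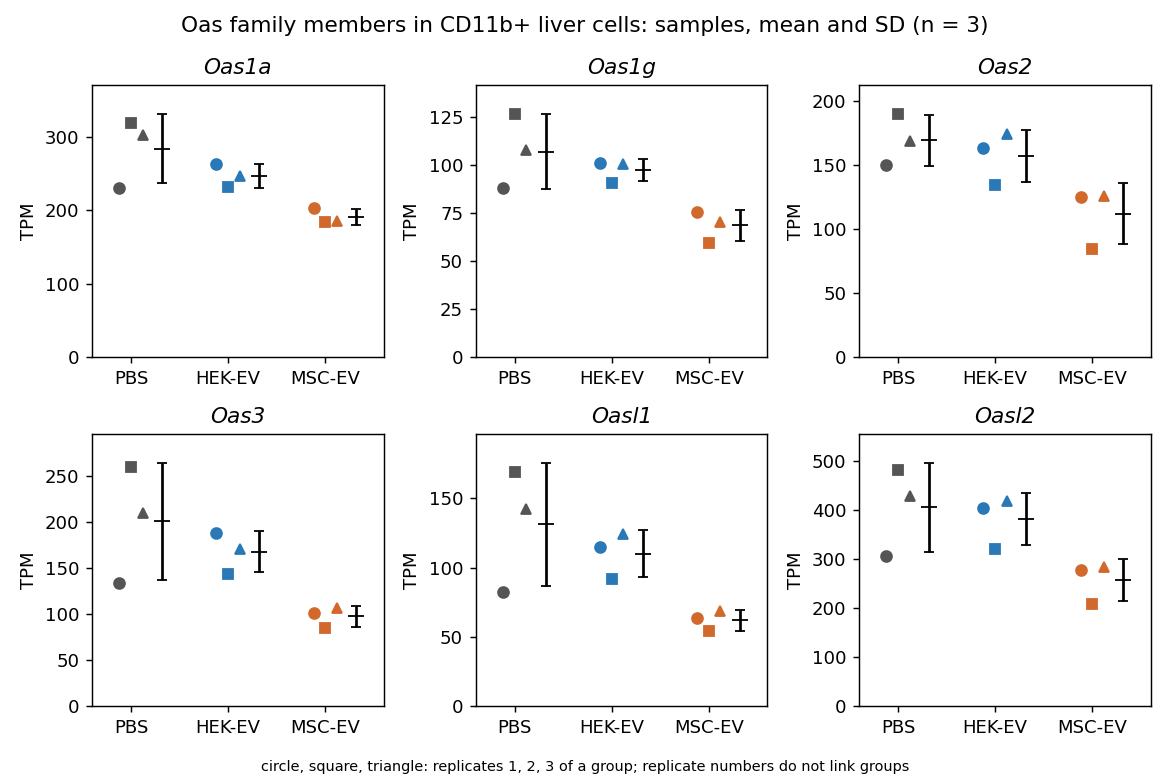
TPM of the 6 members (y axis, from 0) in each sample by group (x axis). Each symbol is 1 sample, and the bar beside each group is the mean ± SD (n = 3). In every panel the 3 MSC-EV samples lie below all PBS and HEK-EV samples, and PBS 1 (circle) is the lowest PBS sample.

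In all 6 members the MSC-EV samples were lower than, and did not overlap, PBS. Across all genes tested, 14.9% had MSC-EV below PBS without overlap and 11.2% above. The median log2 fold change of the members was -0.64, beside 0.01 over the 13820 genes. Since the rule used this contrast, nothing is read from the count. For MSC-EV against HEK-EV the 6 members also did not overlap, where 17.5% of all genes were lower and 12.6% higher without overlap. Their log2 fold changes were -0.37 (SE 0.113) for Oas1a, -0.50 (SE 0.129) for Oas1g, -0.50 (SE 0.162) for Oas2, -0.77 (SE 0.212) for Oas3, -0.82 (SE 0.233) for Oasl1 and -0.57 (SE 0.182) for Oasl2. This comparison and the one with PBS share the MSC-EV samples.

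HEK-EV and PBS overlapped in all 6 members, whereas 2.29% of all genes were lower and 5.51% higher in HEK-EV without overlap. The log2 fold changes of HEK-EV against PBS ran from -0.22 (SE 0.212) for Oas3 to -0.07 (SE 0.182) for Oasl2, with a median of -0.16 beside 0.03 over all genes. The sign was not stable for 2 members. Without PBS 2, Oasl1 was at 0.01 and Oasl2 at 0.07, and Oasl2 was at 0.05 without HEK-EV 2 and at 0.05 without the 3 samples of high acinar sum. Errors of this size do not show that the HEK-EV and PBS groups are alike.

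PBS 2 was the highest sample and MSC-EV 2 the lowest for every member, and the ratio of the highest to the lowest ran from 1.74 for Oas1a to 3.13 for Oasl1. MSC-EV 2 is the MSC-EV sample with an acinar sum in the range of PBS, and its depth ratio (6.84) was the highest of all samples. PBS 1, the sample of lowest depth, was at 0.529 (Oasl1) to 0.838 (Oas2) of the mean of PBS 2 and 3. Without PBS 1 the median log2 fold change of the members for MSC-EV against PBS was -0.80, and without PBS 2 it was -0.52. Without the 3 acinar samples it was -0.96 against PBS and -0.98 against HEK-EV. Those values rest on the single remaining MSC-EV sample, taken to vary like the other groups. With depth as a covariate, the median of the members was -0.86 against PBS and -0.64 against HEK-EV. The values against PBS then included -0.82 for Oas1a, -1.43 for Oas3 and -1.55 for Oasl1. Every MSC-EV sample had a higher depth ratio than all other samples, so depth and treatment cannot be told apart in that fit. When the fit held a term for the acinar split, the median of the members was -0.69 against PBS and -0.56 against HEK-EV.

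By level per length, the PBS order was Oasl2, Oas1a, Oas3, Oas2, Oasl1 and Oas1g, and every neighbouring pair overlapped in range. In HEK-EV the order was the same, and neighbours overlapped only between Oas3 and Oas2 and between Oasl1 and Oas1g. In MSC-EV both of those pairs changed places, with Oas2 at 112 ± 23.8 TPM over Oas3 at 98 ± 11.5 TPM and Oas1g at 68.6 ± 8.16 TPM over Oasl1 at 62.1 ± 7.51 TPM (SD, n = 3 each). Both of those pairs still overlapped in range. The summed level of the 6 members was 990.3, 1545 and 1360 TPM in PBS, 1235, 1014 and 1236 TPM in HEK-EV, and 848.8, 675.5 and 843.3 TPM in MSC-EV. Oasl2 made up 31.2% of that sum in PBS and 32.5% in MSC-EV. Oas3 made up 15.3% ± 1.65 in PBS, 14.4% ± 0.71 in HEK-EV and 12.4% ± 0.386 in MSC-EV (SD, n = 3 each), with MSC-EV below all other samples. Oasl1 likewise made up 9.90% ± 1.39 in PBS and 7.87% ± 0.344 in MSC-EV (SD, n = 3 each), where PBS 1 at 8.32% lay nearest to MSC-EV.

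The members varied together from sample to sample. Over the 9 samples Pearson's r of log2(TPM + 1) ran from 0.861 (Oas1a with Oas2) to 0.991 (Oas3 with Oasl1) in the 15 pairs. With each group's mean removed it ran from 0.582 to 0.972 for the same pairs. These are descriptions. The genes of a sample share its library and depth, which differ between samples, and Oas1a and Oas1g also share sequence.

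Defining genes of the sorted cells differed between the groups in both directions. Of the 10 on the list, 7 were lower and 3 higher in MSC-EV than in PBS, with 2 called lower (Itgb2 and Ptprc) and 0 higher. Against HEK-EV, 7 were lower and 3 higher, with 3 called lower (Itgam, Itgb2 and Ptprc) and 1 higher. These calls are lost in some fits, since the 817 genes called against HEK-EV became 0 without HEK-EV 2, MSC-EV 1 or MSC-EV 2. They also became 0 with the acinar split as a term. Over all genes 3.25% were called lower and 1.86% higher against PBS, and 4.40% and 1.51% against HEK-EV. The gene called higher was Cd68, a lysosomal protein of macrophages, which rose by 0.33 on the log2 scale (limma adjusted p = 0.0443). Itgam, the sorted CD11b chain itself, was at 288.7, 324 and 376.7 TPM in PBS, 339.4, 342.1 and 434.4 TPM in HEK-EV, and 196.4, 234.8 and 254.7 TPM in MSC-EV. The MSC-EV samples lay below all others, with a log2 fold change of -0.53 against PBS (SE 0.134, limma adjusted p = 0.0553) and -0.70 against HEK-EV (SE 0.134, limma adjusted p = 0.0257). Itgb2, the integrin chain that pairs with it, fell by 0.49 on the log2 scale against PBS (limma adjusted p = 0.0218). The part of these shifts in the members' differences was not tested beyond scaling to Ptprc and Csf1r. Ptprc was at 585 ± 65.9 TPM in PBS, 614 ± 49.5 TPM in HEK-EV and 424 ± 4.85 TPM in MSC-EV (SD, n = 3 each), and it fell in MSC-EV by 0.46 on the log2 scale against PBS (SE 0.0873, limma adjusted p = 0.0271). Relative to Ptprc, the members' log2 fold changes for MSC-EV against PBS were -0.10 (Oas1a), -0.18 (Oas1g), -0.16 (Oas2), -0.53 (Oas3), -0.56 (Oasl1) and -0.19 (Oasl2), with a median of -0.18. For MSC-EV against HEK-EV relative to Ptprc the median was -0.01, and Oas1a at 0.16, Oas1g at 0.02 and Oas2 at 0.02 changed sign. Csf1r, the receptor of the macrophage growth factor, was at 1060 ± 106, 1120 ± 53.7 and 1020 ± 59.3 TPM (SD, n = 3 each). Relative to Csf1r the median of the members was -0.58 against PBS and -0.40 against HEK-EV, and all 6 were below 0 in both. In bulk samples, fewer cells of a type and less RNA per cell cannot be told apart.

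**Figure D2:**
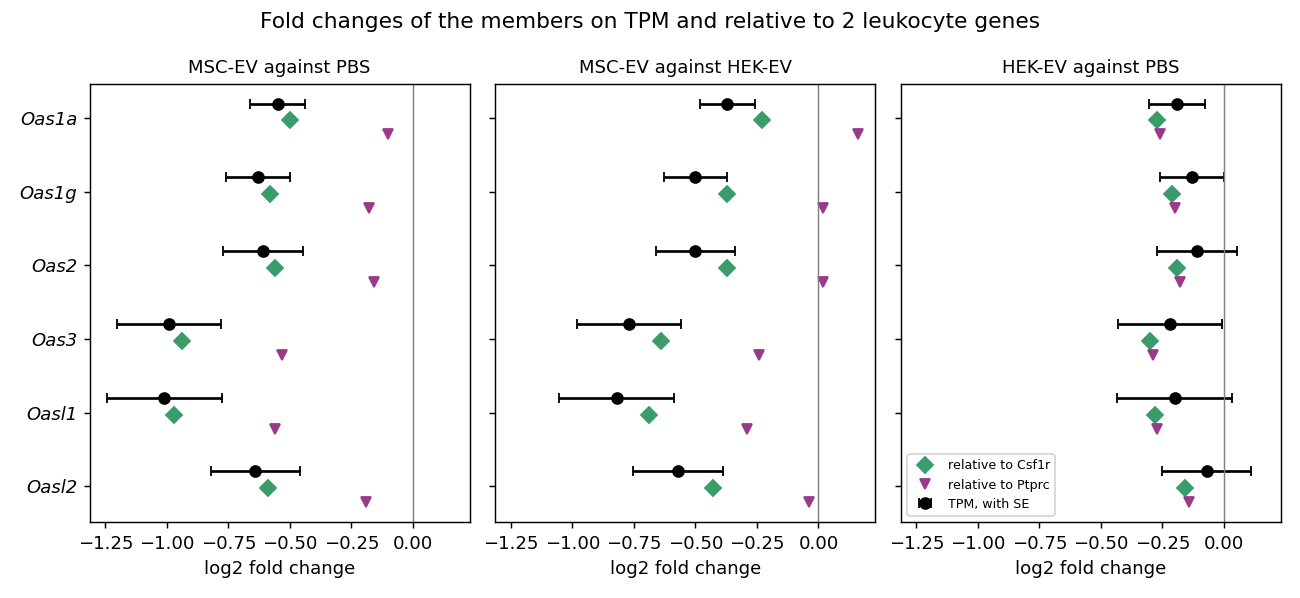
Log2 fold change (x axis) of each member (y axis) in the 3 comparisons. Black points are TPM with the SE of the fit, green diamonds are relative to Csf1r and purple triangles relative to Ptprc. On TPM all points lie below 0, and relative to Ptprc Oas1a (0.16), Oas1g (0.02) and Oas2 (0.02) lie above 0 for MSC-EV against HEK-EV.

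Markers of several cell types also differed between the groups. The 10 genes of the Ly6C-high monocyte list (among them Ly6c2, Ccr2 and Vcan) summed to 6693, 12730 and 13270 TPM in PBS, 9480, 8468 and 10780 TPM in HEK-EV, and 4156, 4794 and 5101 TPM in MSC-EV. MSC-EV lay below the other groups, also without Chil3, the most abundant of the list (2950 to 3374 TPM against 4155 to 8045 TPM in PBS), and PBS 1 was the lowest sample outside MSC-EV, as it was for the sum of the 6 members. All 10 of 10 were lower in MSC-EV than in PBS and 5 (Chil3, Ly6c2, Ms4a4c, Plac8 and Vcan) passed limma's adjusted threshold of 0.05, which 3.25% of all genes passed downward and 1.86% upward. The 10 genes of the Ly6C-low list summed to 2119 to 2597 TPM in PBS, 2331 to 2541 TPM in HEK-EV and 1496 to 1702 TPM in MSC-EV, and 7 passed the threshold downward and 1 (Fabp4) upward against PBS. Kupffer cell genes, those of the resident liver macrophage, summed to 3360 to 4156, 2523 to 4619 and 2116 to 3378 TPM. All 10 of 10 of these were lower in MSC-EV than in PBS, and limma called 0 of them.

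The endothelial list was lower in MSC-EV as well. Its 10 genes summed to 649.9 to 716.1 TPM in PBS, 571.6 to 745.7 TPM in HEK-EV and 356.4 to 485.8 TPM in MSC-EV, and 47.2% to 69.7% of a sample's sum was Fcgr2b, an Fc receptor that myeloid cells also carry. Without Fcgr2b the sums were 272.8 to 328.7, 173.2 to 393.9 and 108.4 to 209.0 TPM, so that MSC-EV lay below PBS and overlapped HEK-EV. All 10 of 10 were lower in MSC-EV than in PBS (median log2 fold change -0.83) and than in HEK-EV (median -0.76). Against PBS, 1 (Fcgr2b) passed the threshold downward, beside 3.25% of all genes. Of the single genes, Pecam1 and Fcgr2b did not overlap HEK-EV and the other 8 did. The hepatocyte list summed to 414.6 to 490.9, 345 to 522.8 and 696 to 795.1 TPM. Its 9 tested genes were all higher in MSC-EV than in PBS (median log2 fold change 0.72) and than in HEK-EV (median 0.88). Against PBS, 3 (Apoa1, Cyp2e1 and Trf) were called higher, beside 1.86% of all genes. Against HEK-EV, 5 were called higher, beside 1.51% of all genes. The dendritic cell list summed to 2878 to 4098, 2638 to 4039 and 4309 to 6252 TPM, with 0 of 9 tested genes called. Cd74 and H2-Ab1, MHC class II genes of any antigen-presenting cell, made up 96.5% to 97.5% of it. Without them the sums were 99.96 to 134.3 TPM in PBS, 87.16 to 118.1 TPM in HEK-EV and 133.5 to 172.9 TPM in MSC-EV. MSC-EV then overlapped PBS narrowly and lay above HEK-EV. Of the 9 genes tested in this list, 7 were higher and 2 lower in MSC-EV than in PBS (median log2 fold change 0.34). Cd74 had 0.65 and H2-Ab1 0.61, and Ccr7 had 0.91 (SE 0.253, limma adjusted p = 0.0701), all without overlap with PBS. Flt3 had 0.37, Cd209a 0.34 and Fscn1 0.26, each overlapping PBS. Clec9a, Zbtb46 and Xcr1 had 0.01, -0.05 and -0.14. Neutrophil genes summed to 3178 to 5965, 5264 to 7391 and 3104 to 3917 TPM, and 9 of 12 tested genes were lower in MSC-EV than in PBS (median log2 fold change -0.22). The 1 neutrophil gene called against PBS, Ltf, rose. Siglech, a defining marker of the plasmacytoid dendritic cell, a strong interferon producer, was at 0.411 to 1.59 TPM. The marker genes called against PBS come from the comparison whose total of 706 calls ran from 5 to 1861 when a sample was left out. None of these lists had a marker at 0 in all samples. The part of cell makeup in the members' differences was not tested.

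**Figure D3:**
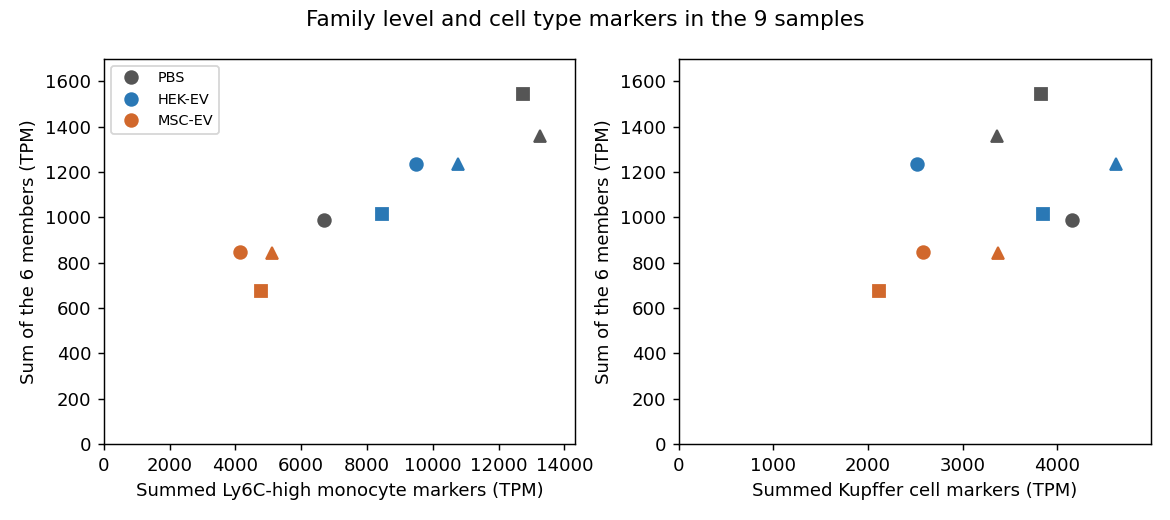
Summed TPM of the 6 members (y axis) against the summed TPM of 10 Ly6C-high monocyte markers (left x axis) and 10 Kupffer cell markers (right x axis), 1 symbol per sample (circle, square and triangle for replicates 1, 2 and 3). The MSC-EV samples are lowest on both sums at left (4156 to 5101 TPM of monocyte markers), while the Kupffer sums overlap between groups.

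The rest of the pathway was read from lists of 56 genes, of which 48 passed the filter. In MSC-EV against PBS, 4 were called lower (Trex1, Irf5, Stat3 and Ptpn6) and 0 higher, where 3.25% of all genes were called lower and 1.86% higher. Of the 48, 41 had a log2 fold change below 0, compared with 47.7% of all genes. The median of the 48 was -0.22, beside 0.01 over all genes. Without overlap, 21 lay below PBS and 1 above, beside 14.9% and 11.2% of all genes. An unadjusted p under 0.05 was reached by 27 of the 48, and by 3184 of the 13820 genes tested. In MSC-EV against HEK-EV, 4 were called lower (Irf5, Jak1, Ptpn6 and Stat3) and 0 higher, where 4.40% of all genes were called lower and 1.51% higher. In that comparison 44 of 48 were below 0, beside 53.8% of all genes. In HEK-EV against PBS limma called 0 of 48, as it called 0% of all genes in either direction, and 0 of the 48 had an unadjusted p under 0.05. The counts rest on few samples. For MSC-EV against PBS the count was 18 without PBS 1, 0 without PBS 2, PBS 3, MSC-EV 1 or MSC-EV 2, 1 without HEK-EV 2 or MSC-EV 3, and 2 without HEK-EV 1. For MSC-EV against HEK-EV it was 10 without PBS 1 and 0 without any of the 3 HEK-EV samples, MSC-EV 1 or MSC-EV 2. With the acinar split as a term of the fit it was 0 in both comparisons.

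Among the other Oas genes, Oas1b and Oas1c did not pass the threshold. Oas1b, annotated as a polymorphic pseudogene and known for flavivirus resistance in wild mice, was at 11.51, 17.76 and 14.82 TPM in PBS and 11.85, 9.364 and 11.32 TPM in MSC-EV, so the groups overlapped. Its log2 fold change was -0.39 (SE 0.143, limma adjusted p = 0.137). Oas1c was at 9.42 ± 1.01 TPM in PBS and 7.90 ± 1.44 TPM in MSC-EV (SD, n = 3 each), with -0.24 (SE 0.129, limma adjusted p = 0.318). Oas1d, Oas1f and Oas1h were listed at 0 in all samples, and Oas1e reached 0.0833 TPM at most.

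The 2-5A effectors act after the synthetases, and 0 of 4 passed the threshold in any comparison. Pde12, which degrades 2-5A, had a log2 fold change of -0.21 for MSC-EV against PBS (SE 0.091, adjusted p = 0.198 by limma), and Akap7, another 2-5A phosphodiesterase, had -0.04 (SE 0.125, adjusted p = 0.897 by limma).

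The sensors of double-stranded RNA and their adaptors were all lower in MSC-EV than in PBS, 10 of 10, and 0 passed the threshold. Ddx58 (RIG-I) was at 70.45, 110.4 and 94.02 TPM in PBS and 58.2, 48.57 and 64.79 TPM in MSC-EV. The groups did not overlap, and the log2 fold change was -0.66 (SE 0.165, limma adjusted p = 0.0537). Adar, which edits double-stranded RNA, had -0.36 (SE 0.0918, limma adjusted p = 0.0543). Mavs, the mitochondrial adaptor of RIG-I, had the smaller difference of -0.18 (SE 0.0467, limma adjusted p = 0.0553), from 54.8 ± 0.0736 to 48.1 ± 0.144 TPM (SD, n = 3 each).

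In the DNA-sensing list, 5 of 5 were lower in MSC-EV than in PBS, and 1 was called. This was Trex1, the exonuclease that clears cytosolic DNA, at 181, 243.8 and 261.7 TPM in PBS and 169.9, 132.4 and 150.4 TPM in MSC-EV. Its log2 fold change was -0.59 (SE 0.142, limma adjusted p = 0.048). Cgas, the DNA sensor, had -0.26 (SE 0.122, limma adjusted p = 0.239) and Sting1, its adaptor, -0.20 (SE 0.0969, limma adjusted p = 0.251).

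Of the interferon genes, 4 were on the list, and each stayed under 1 TPM in all samples. Ifna4 and Ifnl2 were listed at 0 in all samples, Ifnb1 reached 0.141 TPM and Ifng 0.922 TPM, both in MSC-EV 1. Of the 6 receptor chains tested, 0 were called. Ifngr1, the ligand-binding chain for interferon gamma, was at 480 ± 42.8 TPM in PBS and 361 ± 31.8 TPM in MSC-EV (SD, n = 3 each), with a log2 fold change of -0.41 (SE 0.104, limma adjusted p = 0.0546). Il10rb had 0.17 (SE 0.0612, limma adjusted p = 0.14) and Ifngr2 -0.17 (SE 0.067, limma adjusted p = 0.165). Ifnar1, a chain of the type I receptor named after its values were seen, was at 91.0 ± 7.65, 102 ± 7.97 and 86.6 ± 7.69 TPM in PBS, HEK-EV and MSC-EV (SD, n = 3 each).

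Of the 14 JAK, STAT and Irf genes, 12 were lower and 2 higher in MSC-EV than in PBS, with 2 called lower and 0 higher. Irf5, a factor of inflammatory macrophages, was at 375.5, 428.1 and 395.4 TPM in PBS, 408.8, 400.7 and 368.7 TPM in HEK-EV, and 296.7, 314.3 and 318.3 TPM in MSC-EV. MSC-EV lay apart from both, with a log2 fold change of -0.37 (SE 0.0658, limma adjusted p = 0.0251) against PBS and -0.34 (SE 0.0658, limma adjusted p = 0.0261) against HEK-EV. Stat3, the main transducer of interleukin 6 and 10 signals, fell by 0.35 on the log2 scale against PBS (SE 0.0805, limma adjusted p = 0.0406). Irf9, the DNA-binding part of the complex that reads the ISRE, had -0.23 (SE 0.0645, limma adjusted p = 0.0692). Jak1, a kinase of the interferon receptors named after its values were seen, fell against HEK-EV by 0.28 (SE 0.0599, limma adjusted p = 0.0317).

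Of the 7 feedback genes, 6 were lower and 1 higher in MSC-EV than in PBS, with 1 called lower and 0 higher. Ptpn6, the phosphatase SHP-1, was at 724 ± 79.4 TPM in PBS and 549 ± 15.1 TPM in MSC-EV (SD, n = 3 each), with -0.39 (SE 0.0895, limma adjusted p = 0.0405). Isg15, the ubiquitin-like modifier, was at 204.8, 427.3 and 373.3 TPM in PBS and 200.7, 139.7 and 159.7 TPM in MSC-EV, with a gap of a few TPM between PBS 1 and MSC-EV 1. Its log2 fold change was -0.95 (SE 0.258, limma adjusted p = 0.0658). Usp18, the protease that removes Isg15 and brakes the type I receptor, had -0.80 (SE 0.217, limma adjusted p = 0.0661).

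**Figure D4:**
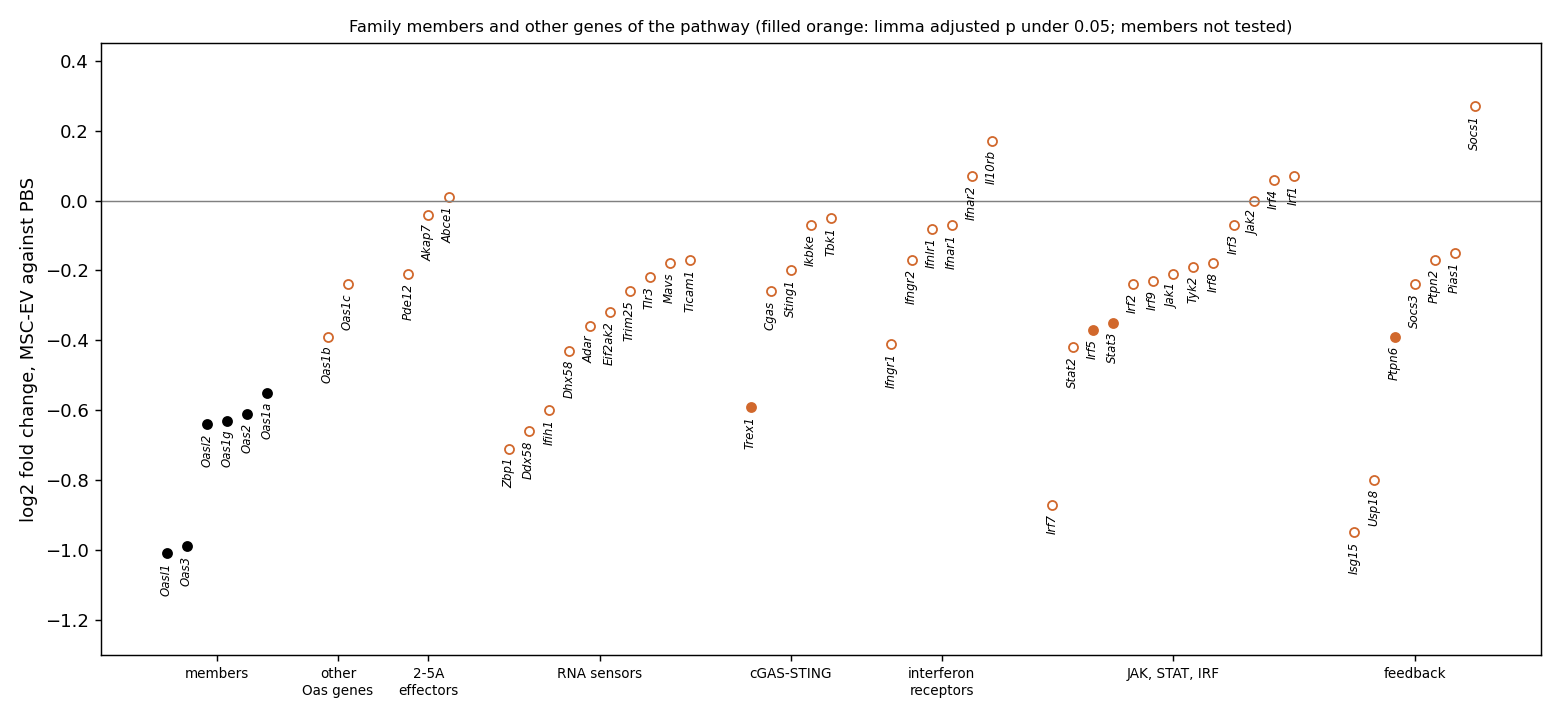
Log2 fold change of MSC-EV against PBS (y axis) for the 6 members (black, not tested) and the other pathway genes that passed the filter and are reported here, by list (x axis). Filled orange points passed limma's adjusted threshold of 0.05 (Trex1, Irf5, Stat3 and Ptpn6), and open points did not. Oasl1 at -1.01 and Oas3 at -0.99 are the lowest points, next to Isg15 at -0.95.

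The genes most like the family were those with the highest Pearson r, over the 9 samples, with the mean log2(TPM + 1) of the members. Among 9616 genes with a mean of at least 5 TPM these were Trim30d (0.991), Trim30a (0.990), Irf7 (0.987), Ddx58 (0.986), Parp12 (0.986), Isg20 (0.985), H2-T24 (0.984), Rtp4 (0.983), Usp18 (0.983) and Rsad2 (0.982). With the group means removed, the highest were Usp18 (0.996), Irf7 (0.991), Ifit1 (0.991), Rsad2 (0.991) and Trim30d (0.990). Of the genes named on both counts, Irf7, the factor of interferon production whose message Oasl1 is known to restrain, was at 511, 1061 and 827.6 TPM in PBS. It was at 791.6, 635.6 and 771.2 TPM in HEK-EV and 464.8, 330.3 and 480.3 TPM in MSC-EV. As in the members, PBS 2 was the highest sample, MSC-EV 2 the lowest and PBS 1 the lowest of PBS. The log2 fold change of Irf7 was -0.87 (SE 0.244, limma adjusted p = 0.073). Rsad2 (viperin) was at 151 ± 54.7, 117 ± 16.6 and 76.7 ± 14.1 TPM in PBS, HEK-EV and MSC-EV (SD, n = 3 each). Looked up beside them after their values were seen, Ly6c2 had an r of 0.933 over the 9 samples (rank 115 of 9616). With group means removed it had 0.760 (rank 299). Ptprc had 0.906 (rank 213) and 0.799 (rank 226), and Ifnar1 had 0.195 (rank 3820) and -0.427 (rank 7382). All these values are descriptions over 9 samples. The genes of a sample share its depth and cell makeup, and both differ between samples.

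Of the 7 most alike genes with a promoter window, 4 held the ISRE core (Trim30d, Trim30a, Ddx58 and Rsad2). It was in 7 of 38 pathway genes with a window, Oas genes left out, in 3 of 5 members, and in 4.10% of the 9923 tested genes with a window. The 3 members were Oas1a, Oas1g and Oas3, and Oas1a and Oas1g were identical at 93 of 100 aligned bases. The members are known interferon targets and the alike genes were picked from these data, so nothing is read from these counts.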

How the data were processed

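RNA of CD11b+ liver cells was extracted with Trizol and made into TruSeq Stranded mRNA libraries, per the labels' protocols. The submitters' processing notes name HISAT2 2.1.0, StringTie and mm10. TPM and FPKM were computed by the authors, per the file headers, and TPM sums to 1000000 in every sample. Per the file headers, the deposited coverage is a read signal averaged along each gene. Whether reads were assigned by strand, and how reads matching several genes were treated, is not given in the sources used here. Gene names are blank in the tables, so gene IDs were matched to RefSeq GRCm38.p6 (45679 of 45777, 99.79%), and rows of a gene were summed.

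Samples were grouped by the treatment in their labels. Here log2(TPM + 1) was fitted for the 13820 genes that reached 1 TPM in 3 or more samples. The linear model of limma 3.58.1 (R 4.3.3, trended eBayes) held all 9 samples and the groups alone. Two-sided p-values were adjusted by Benjamini-Hochberg across those genes, and genes under 0.05 are called. The fit was tested on simulated data. Exact permutation of 3 against 3 samples cannot go below p = 0.1 and was not used for single genes. No read counts were used, so no interval or limit that needs them is given.

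The members and gene lists were chosen with earlier results of these data known. Named genes were the 6 members, other Oas genes past the filter, up to 3 of smallest p in MSC-EV against PBS per pathway list, the 10 genes most like the members over all samples and the 5 most like them within groups. Others are said to be named after their values were seen. Some genes of the pathway lists are counted with their list and not reported singly here. Cell marker lists are given by summed TPM, and lymphocyte (15.76 to 30.55 TPM), erythroid (0.596 to 4.71 TPM), stellate (94.33 to 212.3 TPM) and plasmacytoid dendritic cell sums (420.3 to 571.9 TPM) only here. Bst2, which many cells carry, was 79.9% to 95.0% of the plasmacytoid sum and Ecm1 73.9% to 92.2% of the stellate sum. In those lists limma called Nkg7 and Tcf4 higher and Runx2 lower in MSC-EV than in PBS. The acinar split puts samples over 10 times the lowest acinar sum on one side. The alternatives tried were FPKM, median-of-ratios scaling, a 0.1 pseudocount, no filter, a filter at 5 TPM, the largest row of a gene, a fit of only the 6 samples compared, a replicate block, the acinar split as a model term, and omission of each sample. Depth as a covariate, values relative to Ptprc or Csf1r, and leaving out the 3 acinar samples were added after seeing the data. Python 3.11.15 with numpy 2.4.6, pandas 2.3.3 and matplotlib 3.10.9 was used for the rest.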

Additional observations from a re-analysis of the deposited data

How the results depend on the processing

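The 6 members kept a negative fold change for MSC-EV against PBS in 132 of 132 alternative values, and in 129 of 132 against HEK-EV. The exceptions were relative to Ptprc (Oas1a 0.16, Oas1g 0.02, Oas2 0.02). For HEK-EV against PBS, 4 of 132 turned positive: Oasl1 at 0.01 and Oasl2 at 0.07 without PBS 2 (ranges over the samples left out -0.50 to 0.01 and -0.26 to 0.07), and Oasl2 at 0.05 without HEK-EV 2 and at 0.05 without the 3 acinar samples. The members' median for MSC-EV against PBS (-0.64) was -0.18 relative to Ptprc, -0.96 without the acinar samples and -0.80 to -0.52 when each sample was left out. Against HEK-EV (-0.54) it was -0.01, -0.98 and -0.65 to -0.42 in the same order, and for HEK-EV against PBS (-0.16) it ran from -0.30 to -0.00 over the samples left out. Counts over all genes were far less stable, and apart from fewer samples or genes the cause was not tested. The 706 genes called for MSC-EV against PBS became 361 with no filter, 77 with only the 6 samples compared, 404 with the replicate block, 5 with the acinar term, 1340 with depth as a covariate and 5 to 1861 with a sample left out. It was 5 without PBS 2, 7 without PBS 3, 25 without MSC-EV 1, 59 without MSC-EV 2, 297 without HEK-EV 2, and 1861 without PBS 1. The 817 for MSC-EV against HEK-EV became 387 with no filter, 459 on FPKM, 512 with median-of-ratios scaling, 448 with the replicate block, 0 with the acinar term, 1446 with depth and 0 to 1369 with a sample left out. For HEK-EV against PBS, limma called 0 (495 at unadjusted p under 0.05), 4 with no filter and 0 to 2 with a sample left out. The 4 pathway genes called for MSC-EV against PBS became 0 on FPKM, 1 with median-of-ratios scaling, 2 with no filter, 0 with only the 6 samples, 1 with the replicate block, 0 with the acinar term and 0 to 18 with a sample left out. The 4 against HEK-EV became 1, 1, 3, 7, 2 and 0 in that order, 8 with depth, and 0 to 10 with a sample left out. The share of calls that were higher in MSC-EV than in PBS was 36.4% on TPM, 63.1% on FPKM and 47.2% with median-of-ratios scaling, and against HEK-EV 25.6%, 59.5% and 46.3%. All 6 members were lower on each of these scales, which moved the median of all genes by under 0.1. The main fit did not pair samples by replicate number. Deviations of same-numbered samples from their group means correlated at -0.50 to 0.06 over 9 pairs, and those of other numbers at -0.28 to 0.55 over 18. Not every sample correlated best with its own number. With 3 samples a group, these values cannot show that no pairing exists. With 3 samples a group and no counts, depth limits what can be said of low genes, and the members' sequence sharing limits Oas1a and Oas1g taken singly.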
